A study of Mus musculus with 6 samples.

Results

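The genes described here act in plasminogen activation and in the start and restraint of coagulation. They were taken by name, as the rows of the deposited table whose Ensembl identifiers are Plau, Plaur, Plat, Serpine2, Serpinb2, F3, Tfpi, Tfpi2 and Thbd in GENCODE M21, which made 9 genes of 55426 features. All 9 had enough counts to be tested. RNA was sequenced from primary mouse pancreatic stellate cells (PSCs), fibroblast precursors of the pancreas isolated from wild-type C57BL/6 mice and used as primary lines at low passage. In both conditions they lay in Matrigel in a transwell insert above organoids of mT3, a mouse pancreatic ductal adenocarcinoma (PDAC) cell line derived from a tumor of a genetically engineered mouse. Normoxic cocultures were kept for 48 h at 21% O2 and hypoxic cocultures for 48 h at 1% O2, with 3 samples of each, 6 in all. The labels and the methods do not say whether the 3 samples of a condition came from separate PSC lines, so the p-values measure the spread between these samples only. PSCs cultured without tumor cells were not analysed here, so each value belongs to the coculture.

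Plasminogen, a protein made by the liver, is cut to the active protease plasmin by urokinase (Plau) or by tissue plasminogen activator (Plat). Urokinase works at the cell surface, held by its receptor Plaur, and serpins such as Serpinb2 and Serpine2 bind the activators irreversibly. Coagulation starts when tissue factor (F3), a membrane protein of fibroblasts and other cells outside the vessel, meets coagulation factor VII. Tfpi blocks that complex, and thrombomodulin (Thbd) turns thrombin toward the anticoagulant protein C. Stromal cells of PDAC are known as a source of several of these proteins.

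Normoxic samples held between 24749601 and 25914892 counts, and hypoxic samples between 25847719 and 31925054. Values are RSEM expected counts, which the authors estimated per gene, and CPM, counts relative to library size, scaled between libraries by the TMM method. At these depths 3 counts, the floor used here, stood for 0.0943 to 0.122 CPM. Genes known to respond to low oxygen followed the labels, with log2 fold changes between 1.42 for Pgk1 and 5.13 for Car9, and each of the 6 such genes was called higher. Fibroblast markers were abundant, with a summed level of 28424 to 35619 CPM in normoxia and 30459 to 35302 CPM in hypoxia. Collagen genes made up most of this sum, and of the 10 markers 2 were called higher (Pdgfra 0.82 and Pdpn 0.99 as log2 fold changes) and 2 lower (Lum -2.17 and Thy1 -1.005). Of the 4 markers of quiescent stellate cells, Gfap and Lrat had at most 3 counts in any sample, while Des (316 to 494 counts) and Ngfr (89 to 312 counts) were present and Ngfr was called lower (-1.50). Leukocyte markers were present in every library, and the values that moved with them are given further on. These are bulk samples, in which fewer cells of a type and less RNA per cell cannot be told apart.

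In hypoxic PSCs the inhibitor Serpinb2 rose 21.0-fold, the coagulation initiator F3 fell 2.06-fold and the inhibitor Serpine2 fell 1.68-fold. The activator genes Plau and Plat were not among the genes called. A gene was called where edgeR's quasi-likelihood test gave an adjusted p under 0.05 over the 16207 genes tested and the linear fold change lay beyond 1.5. By this rule 1 of the 9 genes was called higher, beside 18.9% of all tested genes, and 2 of 9 were called lower, beside 15.3%. With the adjusted p alone 5 of 9 were higher, beside 31.8% of all tested genes, and 2 of 9 lower, beside 31.0%. The hypoxic samples lay wholly above the normoxic samples for 4 of the genes (34.9% of all tested genes) and wholly below them for 3 (34.0%), and the conditions overlapped for Plau and Thbd. The counts called with the fold threshold are thus near what the share of all genes would give for 9 genes. The median log2 fold change was 0.26 over the 9 genes and -0.00 over all genes tested, with a range from -1.05 to 4.39 in the set.

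**Figure D1:**
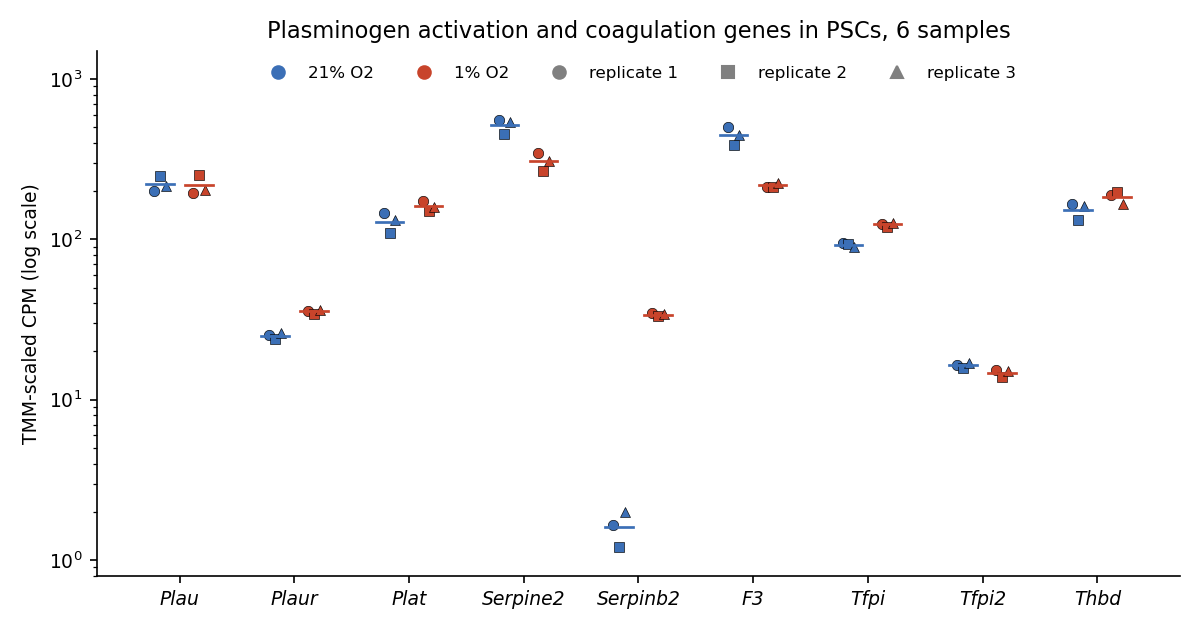
TMM-scaled CPM on a log axis for the 9 genes in the 6 samples, with blue points for 21% O2 and red points for 1% O2, marker shapes for replicate numbers and short lines for group means. Serpinb2 sits between 1.21 and 1.99 CPM in normoxia and between 33.2 and 34.6 CPM in hypoxia, and the points of Plau and Thbd overlap between conditions.

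The promoters of Serpinb2, F3 and Plaur are shown because Serpinb2 rose, F3 fell and Plaur lay just short of the fold threshold, and each window holds the same short motif. The runs are the 250 bases before the RefSeq start site on GRCm38.p6, read from 5′ to 3′ on the strand of the gene, here the plus strand for all. Serpinb2 lies at chr1:107511173-107511422, F3 at chr3:121723287-121723536 and Plaur at chr7:24462233-24462482. Capitals mark matches, on either strand, to the AP-1 motif TGANTCA and to the Sp1 or KLF box GGGCGG, where adjoining or overlapping boxes form 1 run.
Serpinb2: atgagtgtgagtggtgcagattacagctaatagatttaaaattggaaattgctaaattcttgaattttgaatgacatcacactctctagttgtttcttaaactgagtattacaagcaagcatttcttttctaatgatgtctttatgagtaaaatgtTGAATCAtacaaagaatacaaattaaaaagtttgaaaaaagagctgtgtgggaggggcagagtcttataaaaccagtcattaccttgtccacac
F3: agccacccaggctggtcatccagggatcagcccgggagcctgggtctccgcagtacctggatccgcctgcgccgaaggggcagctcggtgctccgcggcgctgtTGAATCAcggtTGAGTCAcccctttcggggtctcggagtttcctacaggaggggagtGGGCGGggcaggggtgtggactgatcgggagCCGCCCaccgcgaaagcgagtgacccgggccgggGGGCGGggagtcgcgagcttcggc
Plaur: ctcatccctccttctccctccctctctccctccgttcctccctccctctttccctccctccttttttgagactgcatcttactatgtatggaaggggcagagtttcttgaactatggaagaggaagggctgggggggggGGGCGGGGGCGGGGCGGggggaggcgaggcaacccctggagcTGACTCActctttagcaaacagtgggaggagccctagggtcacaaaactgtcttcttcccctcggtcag

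The Serpinb2 window held 1 AP-1 heptamer, TGAATCA, from 94 to 88 bases before the start, and no GGGCGG box. The F3 window held 2 heptamers, TGAATCA from 146 to 140 and TGAGTCA from 135 to 129 bases before the start, and 3 GGGCGG boxes. The Plaur window held TGACTCA from 69 to 63 bases before the start and 3 GGGCGG boxes from 111 to 95, the last pair overlapping by 1 base. The window of Serpine2, which was called lower, is not shown. It held 0 AP-1 heptamers and 6 GGGCGG boxes. The promoter table used here matched 6 of the 9 genes, with 10 windows in all, and Plau, Plat and Thbd were not matched in it. The AP-1 heptamer occurred in 5 of the 10 windows, which belong to 4 of the 6 genes (Plaur, Serpinb2, F3 and Tfpi2) and include a pair of overlapping Serpinb2 windows. Of all 32851 windows of this length in the table, 6.75% held it. The core of the hypoxia response element, ACGTG or GCGTG, occurred in 38.6% of all windows and in 1 of the 10, an internal start of Tfpi2 that lies 20544 bases downstream of the GENCODE start of the gene. The AP-1 heptamer of Tfpi2 lies in this same internal window, and the other Tfpi2 windows held no match to it. The NF-kB motif, at 3.90% of all windows, occurred in 0 of the 10. GGGCGG occurred in 6 of the 10 windows and in 32.7% of all windows. The base composition of the windows differed widely, from 32.4% G and C for Serpinb2 to 70.0% for F3 and 78.8% for Serpine2. These are matches of letters in a short window, and no binding was measured.

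Among the activators, Plau (ENSMUSG00000021822; chromosome 14 of GRCm38, 20836660 to 20843385, plus strand), the gene of urokinase, had close means in both conditions. It was at 200.2, 247 and 217 CPM in normoxic replicates 1, 2 and 3, and at 195, 252 and 204 CPM in hypoxic replicates 1, 2 and 3. Replicate 2 was the highest of both conditions, and the groups overlapped fully. The means were 221 ± 23.7 and 217 ± 30.5 CPM (SD, n = 3 each), with a log2 fold change of -0.03 (standard error [SE] 0.11, edgeR adjusted p = 0.83), a difference smaller than the spread between replicates. Its sign changed in 3 of the 6 fits that left out 1 sample, without normoxic replicate 2 (0.053), hypoxic replicate 1 (0.042) or hypoxic replicate 3 (0.013).

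Plat (ENSMUSG00000031538; chromosome 8, 22757727 to 22782844, plus strand), the gene of tissue plasminogen activator, showed a small difference. It was at 146, 109 and 132 CPM at 21% O2 and at 173, 149.5 and 160.2 CPM at 1% O2. The hypoxic samples lay above the normoxic ones, but the closest pair, normoxic replicate 1 and hypoxic replicate 2, differed little. The log2 fold change was 0.32 (SE 0.10, edgeR adjusted p = 0.0206), which is under the fold threshold. The adjusted p from edgeR was 0.0511 without normoxic replicate 3, 0.0765 without hypoxic replicate 1 and 0.055 without hypoxic replicate 3. In the remaining fits that left out a sample it lay between 0.0057 and 0.0344. With the replicate block in edgeR it was 0.00165.

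Plaur (ENSMUSG00000046223; chromosome 7, 24462484 to 24475968, plus strand), the surface receptor of urokinase, was at 25.2, 23.8 and 26.2 CPM in normoxia and at 36.0, 34.4 and 36.3 CPM in hypoxia. The groups were well apart for their narrow spread, 25.1 ± 1.251 against 35.5 ± 1.00 CPM (SD, n = 3 each). The log2 difference of 0.50 (SE 0.06, edgeR adjusted p = 0.000118) stands for a 1.42-fold difference, just short of the fold of 1.5, and ran from 0.46 to 0.53 with each sample left out. Receptor RNA was higher at 1% O2 by the adjusted p while RNA of its ligand Plau did not pass either threshold.

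The inhibitor serpins moved in different directions. Serpinb2 (ENSMUSG00000062345; chromosome 1, 107511423 to 107535478, plus strand), a serpin of clade B that inhibits urokinase and is found mostly inside the cell, had 43, 32 and 49 counts at 21% O2 and 881, 1040 and 1087 counts at 1% O2. In CPM this was 1.66, 1.21 and 1.99 against 34.6, 33.2 and 34.2, so the hypoxic samples lay within a narrow band far above the normoxic ones. The means were 1.62 ± 0.388 and 34.0 ± 0.722 CPM (SD, n = 3 each), and the log2 fold change was 4.39 (SE 0.13, edgeR adjusted p = 4.29e-08). By fold it ranked 80 among the 3068 genes called higher. Exons of Serpinb2 overlap those of Serpinb10 on the same strand, and Serpinb10 had 1 count in 1 sample and 0 in the others.

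Serpinb2 lies in a cluster of clade B serpin genes, whose other members were looked up after its values were seen. Within 500 kb, Serpinb8 was the only other such gene with enough counts to be tested, at 195, 204 and 157 counts in normoxia and 172, 294 and 248 in hypoxia, with a log2 fold change of 0.15 (edgeR adjusted p = 0.392). Each of the others had at most 3 counts in any sample.

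Serpine2 (ENSMUSG00000026249; chromosome 1, 79794197 to 79861180, minus strand), which encodes glia-derived nexin, an extracellular inhibitor of thrombin and of both activators, fell. It was at 554, 453 and 538 CPM at 21% O2 and at 346, 266 and 309 CPM at 1% O2. Every hypoxic sample was below every normoxic one, and replicate 2 was the lowest of both conditions. The means were 515 ± 53.9 and 307 ± 39.9 CPM (SD, n = 3 each), with a log2 fold change of -0.75 (SE 0.11, edgeR adjusted p = 0.00027).

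**Figure D2:**
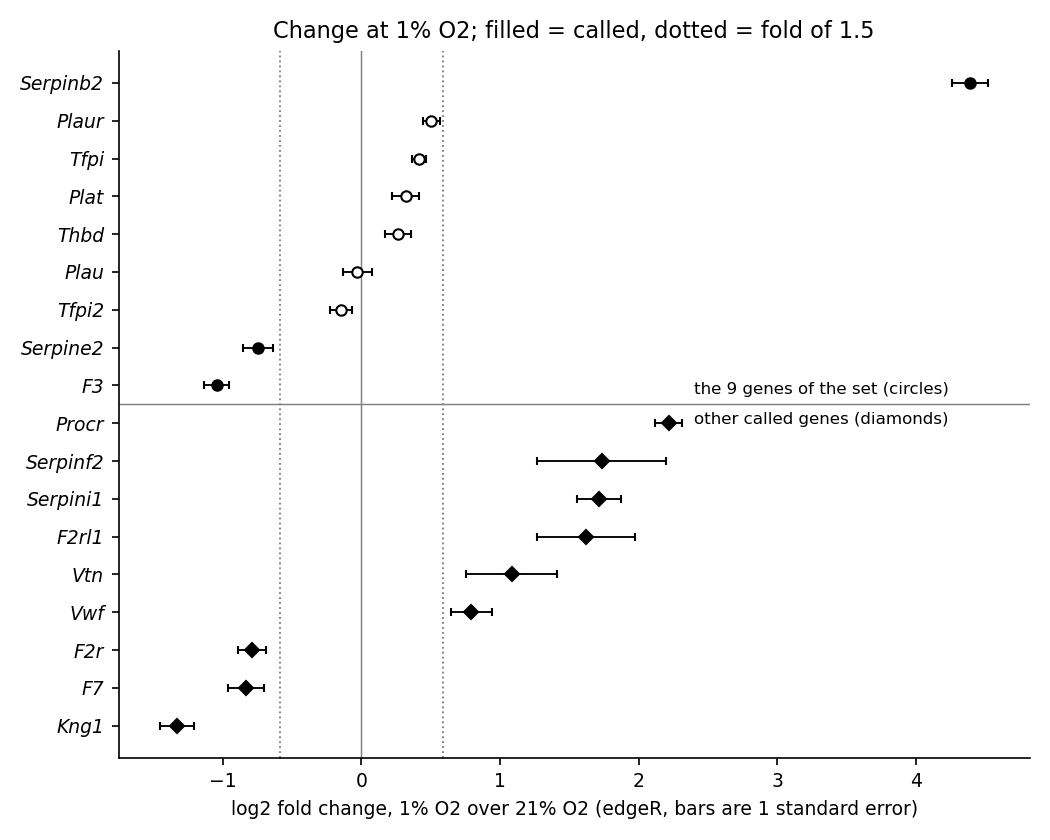
Log2 fold change at 1% O2 over 21% O2 with bars of 1 standard error, for the 9 genes of the set (circles) and the 9 called genes of the wider plasminogen and coagulation lists (diamonds). Filled symbols were called and dotted lines mark a fold of 1.5. Serpinb2 lies at 4.39, F3 at -1.05 and Serpine2 at -0.75, and the other 6 genes of the set are open symbols between the dotted lines.

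Of the coagulation genes, F3 (ENSMUSG00000028128; chromosome 3, 121723537 to 121735048, plus strand), the gene of tissue factor, was the most abundant of the set per length in normoxia and fell. It was at 503, 389.7 and 450.0 CPM at 21% O2 and at 213, 213 and 225 CPM at 1% O2. The lowest normoxic sample was well above the highest hypoxic one, and the hypoxic samples varied less, with an SD of 7.31 around 217 CPM against 56.8 around 448 CPM (n = 3 each). The log2 fold change was -1.05 (SE 0.09, edgeR adjusted p = 1.18e-05), which is 2.06-fold lower, and it ran from -1.14 to -0.96 with each sample left out.

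Tfpi (ENSMUSG00000027082; chromosome 2, 84432855 to 84476775, minus strand), the Kunitz-type inhibitor of the complex of tissue factor and factor VII, was at 94.9, 93.2 and 90.03 CPM in normoxia and at 126, 119 and 127 CPM in hypoxia. The groups were apart and each varied little. Its log2 fold change was 0.42 (SE 0.05, edgeR adjusted p = 0.000109), a 1.34-fold difference that passed the adjusted p and not the fold threshold.

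Tfpi2 (ENSMUSG00000029664; chromosome 6, 3962595 to 3988919, minus strand), a related Kunitz inhibitor that acts on plasmin and other proteases in the matrix, was at 16.4, 15.8 and 16.9 CPM in normoxia and at 15.2, 13.9 and 15.2 CPM in hypoxia. The hypoxic samples lay below the normoxic ones by a small distance. The log2 fold change of -0.15 (SE 0.08, edgeR adjusted p = 0.123) did not pass the test.

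Thbd (ENSMUSG00000074743; chromosome 2, 148404466 to 148408188, minus strand), the thrombin receptor that starts the protein C pathway, was at 167, 132 and 160.5 CPM in normoxia and at 189, 197 and 166 CPM in hypoxia. Hypoxic replicate 3 lay just below normoxic replicate 1, so the groups overlapped. The log2 fold change was 0.26 (SE 0.10, edgeR adjusted p = 0.0369). This p moved above 0.05 in 4 of the 6 fits that left out a sample. The adjusted p from edgeR was 0.0864 without normoxic replicate 2, 0.0591 without normoxic replicate 3, 0.098 without hypoxic replicate 1 and 0.12 without hypoxic replicate 2. With upper-quartile normalization of all 6 samples it was 0.0535.

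Ratios of counts within a sample do not depend on how libraries are scaled. Because F3 and its inhibitor Tfpi moved apart, their ratio changed more than either gene. There were 5.30, 4.18 and 4.999 counts of F3 for each count of Tfpi in normoxic replicates 1, 2 and 3, and 1.70, 1.78 and 1.78 in the hypoxic ones. The ratio was 2.74-fold lower at 1% O2, and the groups did not overlap (two-sided exact permutation test, p = 0.1, the smallest that 3 against 3 samples allow, and 0.15 adjusted over the 3 ratios compared). F3 against Thbd went from 3.02, 2.94 and 2.80 to 1.13, 1.08 and 1.36, a 2.47-fold lower ratio with the same exact permutation p = 0.1.

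On the fibrinolytic side, the ratio of Plau to Plat was 1.37, 2.26 and 1.64 in normoxia and 1.13, 1.68 and 1.27 in hypoxia, so the groups overlapped (exact permutation test, p = 0.3), and it was highest in replicate 2 of both conditions. A design of this size cannot bring any of these tests under 0.05.

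**Figure D3:**
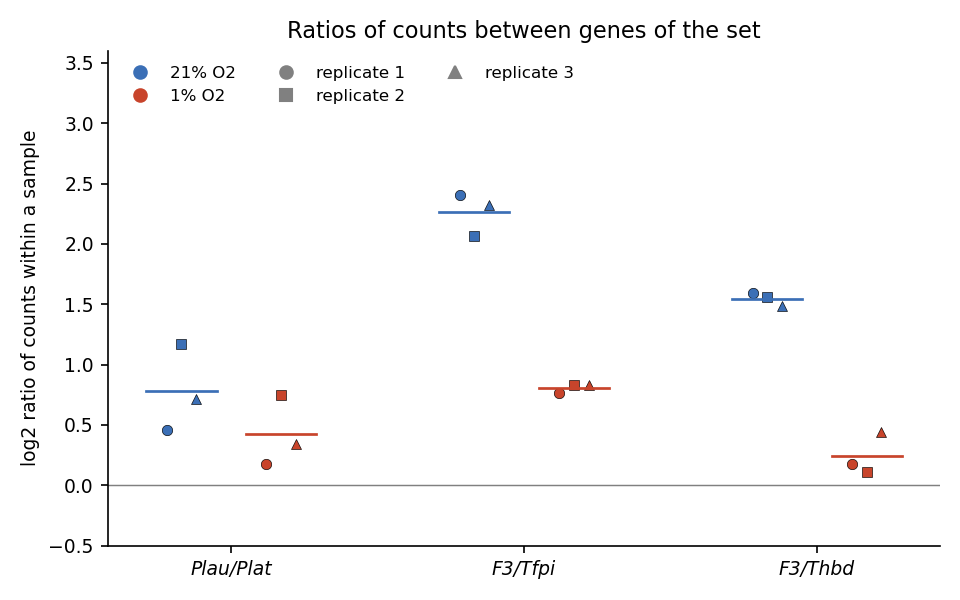
Log2 ratio of the counts of 2 genes within each sample, in blue for 21% O2 and red for 1% O2, with marker shapes for replicates and short lines for means. The means of F3 over Tfpi are 2.26 in normoxia and 0.81 in hypoxia, those of F3 over Thbd are 1.55 and 0.24, and Plau over Plat overlaps.

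Levels of different genes were compared as CPM per kb of exon, with the union of all annotated exons as the length. The order depends on this length, which is 8287 bases for Serpine2 and 2527 bases for F3. Without division by length, Serpine2 (515 CPM) was above F3 (448 CPM) in normoxia. In normoxia F3 was highest at 177 ± 22.5 CPM per kb, followed by Plau (93.5 ± 10.02), Serpine2 (62.1 ± 6.51) and Thbd (41.1 ± 4.91; SD, n = 3 each). The samples of these neighbours in the order did not overlap. Plat (20.7 ± 2.93) and Tfpi (16.97 ± 0.452) came next, Plaur (9.58 ± 0.478) and Tfpi2 (9.38 ± 0.312) overlapped, and Serpinb2 was lowest at 0.689 ± 0.165 CPM per kb.

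In hypoxia Plau (91.6 ± 12.9 CPM per kb) and F3 (85.8 ± 2.89) were highest, and their samples overlapped. Thbd (49.4 ± 4.28) came before Serpine2 (37.0 ± 4.81), the reverse of their normoxic order. Without division by length, Serpine2 (307 CPM) stayed above Thbd (184 CPM) in hypoxia. Serpinb2 reached 14.5 ± 0.307 CPM per kb, above Plaur at 13.6 ± 0.384 and Tfpi2 at 8.46 ± 0.444 (SD, n = 3 each).

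**Figure D4:**
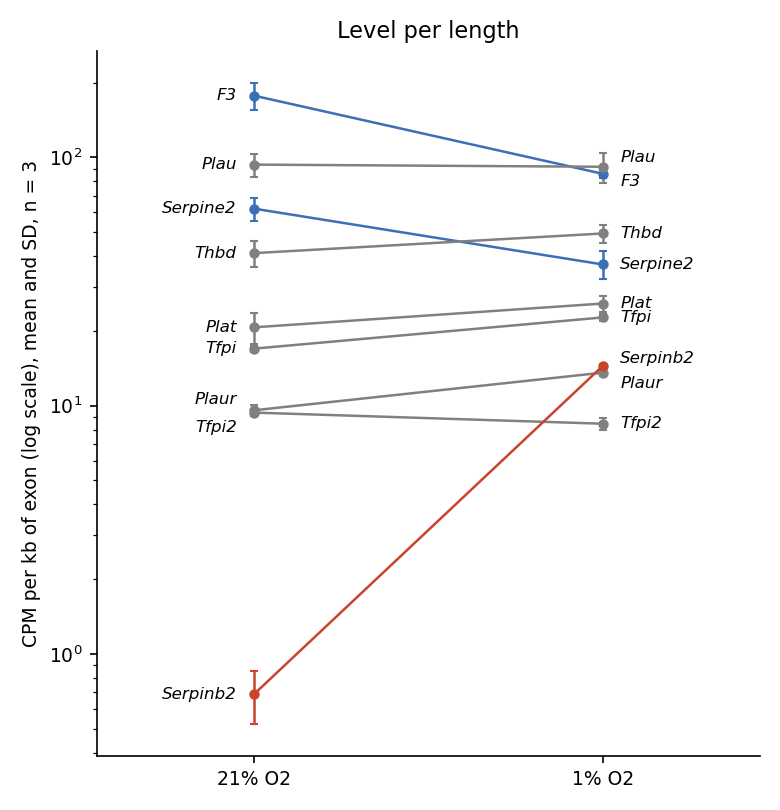
Mean CPM per kb of exon on a log axis with bars of 1 SD (n = 3), at 21% O2 on the left and 1% O2 on the right, for the 9 genes. Lines are red where the mean rose by more than 1.5-fold, blue where it fell by more, and grey otherwise. F3 drops from 177 to 85.8 and Serpinb2 climbs from 0.689 to 14.5 CPM per kb.

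Several of these genes are also known from macrophages and endothelium, so marker lists of other cell types were measured. The 10 leukocyte markers summed to 859, 1511 and 1179 CPM in normoxic replicates 1, 2 and 3 and to 442, 782 and 535 CPM in hypoxic replicates 1, 2 and 3. All 10 were tested, 6 were called lower and 0 higher in hypoxia (edgeR, 6 with an adjusted p under 0.05), and none was at 0 in every sample. Lyz2 alone made up most of each sum, at 653, 1164 and 883 CPM in normoxia and 315, 546 and 378 CPM in hypoxia. The 4 not called were Ptprc (-0.59), Csf1r (-0.24), Itgam (-0.00) and Cd14 (0.08), whose samples overlapped between conditions. Within each condition the order of the replicates by Plau was that of the leukocyte sum, with replicate 1 lowest and replicate 2 highest. Ordered from low to high Plat, the 6 samples ran from high to low leukocyte sum without exception, across both conditions. Serpine2 had the reverse order of the leukocyte sum within each condition, but between conditions both Serpine2 and the sum were lower in hypoxia. Replicate 2 also had the lowest fibroblast sum of each condition, and it was the lowest replicate for 7 of the 9 genes in normoxia and for 7 of 9 in hypoxia. The part of leukocytes in the values of Plau, Plat and Serpine2 was not tested. Without replicate 2 of both conditions, a fit added after the data were seen, the log2 fold change was 4.24 for Serpinb2, -1.12 for F3 and -0.74 for Serpine2, and all were called as before, while Thbd was at 0.11 (edgeR adjusted p = 0.187).

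**Figure D5:**
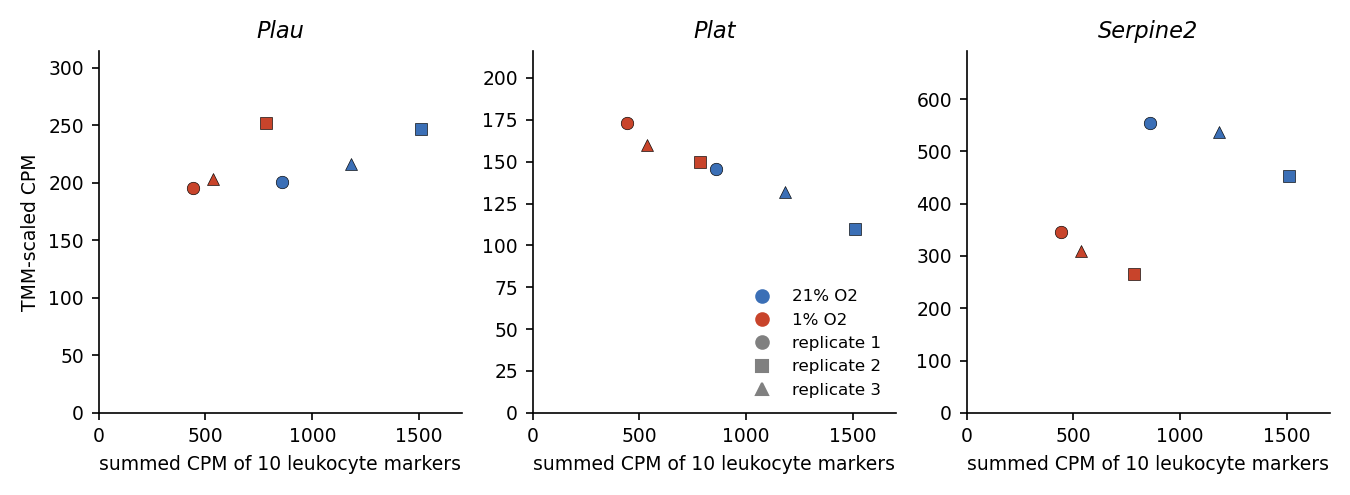
TMM-scaled CPM of Plau, Plat and Serpine2 against the summed CPM of 10 leukocyte markers, 1 point per sample, blue for 21% O2 and red for 1% O2. The Plat points descend from 173 CPM at a marker sum of 442 CPM to 109 CPM at 1511 CPM, and replicate 2 (squares) has the highest marker sum and the highest Plau in each condition.

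Markers of other cells were low, but some were called. The 7 epithelial and tumor markers summed to 3.23 to 5.31 CPM in normoxia and 24.9 to 28.9 CPM in hypoxia, most of it in hypoxia from Krt19. Krt19 was called higher, from 27, 12 and 16 counts to 525, 681 and 760 (log2 fold change 4.94, edgeR adjusted p = 1.3e-07), with Epcam and Cdh1 at no more than 1 count in any sample. The 7 endothelial markers summed to 10.9 to 16.2 CPM in normoxia and 15.2 to 21.4 CPM in hypoxia, 1 of them called higher and 2 lower, with Pecam1 between 38 and 95 counts. Thbd was at 132 to 197 CPM, not divided by length, and the part of endothelial cells in its value was not tested. The 4 mesothelial markers summed to 20.6 to 28.9 and 40.6 to 42.1 CPM, mostly Wt1, which was called higher (log2 fold change 0.76), while Msln had at most 8 counts and Upk3b at most 16. Their part in the changes of the set was not tested.

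The wider plasminogen system list compared here held 12 other genes, 8 of them tested, of which 3 were called higher and 0 lower, beside 18.9% and 15.3% of all tested genes. Their median log2 fold change was 0.24. The called genes were Serpini1, Serpinf2 and Vtn. Serpini1, neuroserpin, an inhibitor of tissue plasminogen activator, rose from 2.85, 2.39 and 3.69 CPM to 9.39, 10.3 and 9.55 CPM (log2 fold change 1.72, edgeR adjusted p = 2e-05). Serpinf2, the inhibitor of plasmin, rested on 2, 5 and 6 counts in normoxia and 12, 25 and 14 in hypoxia (log2 fold change 1.73, edgeR adjusted p = 0.00974), and it was not called by DESeq2 with the replicate block (adjusted p = 0.0633). Vtn, vitronectin, an adhesive protein of plasma and matrix that binds Plaur, had 35, 79 and 84 counts against 104, 230 and 157 (log2 fold change 1.08, edgeR adjusted p = 0.017), and its adjusted p from edgeR was 0.0725 without hypoxic replicate 2. Plg itself, the gene of plasminogen, had 0 counts in every sample, which allows up to 0.0943 to 0.122 CPM.

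Of 31 other coagulation genes, 17 were tested, 3 were called higher and 3 lower, with a median log2 fold change of 0.04. These counts are near the shares of all tested genes, 18.9% higher and 15.3% lower. Procr, the endothelial protein C receptor, rose from 17.6, 14.8 and 15.5 CPM to 65.4, 81.4 and 75.3 CPM, with no overlap. Its log2 fold change was 2.22 (SE 0.10, edgeR adjusted p = 2.47e-07). It was the 1 called gene among 7 anticoagulant genes, of which 4 were tested. The gene of protein C itself, Proc, had 1 count in 1 sample and 0 in the others.

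Among 20 coagulation factors and the proteins that process them, 10 were tested, 1 was called higher and 2 lower. F7, coagulation factor VII, the partner of tissue factor, fell from 10.05, 7.86 and 9.41 CPM to 5.11, 4.72 and 5.47 CPM (log2 fold change -0.84, edgeR adjusted p = 0.000473), so both F3 and F7 were lower at 1% O2. Kng1, kininogen, fell from 11.4, 11.8 and 13.3 CPM to 4.202, 5.201 and 5.06 CPM (log2 fold change -1.33, edgeR adjusted p = 1.8e-05), and it has a close paralog with which reads could be shared. Vwf, von Willebrand factor, rose from 4.08, 3.83 and 4.02 CPM to 6.01, 8.14 and 6.47 CPM (log2 fold change 0.79, edgeR adjusted p = 0.0014). The 4 megakaryocyte and platelet markers also summed to more in hypoxia, 19.6 to 36.5 against 6.08 to 11.5 CPM, mostly from Pf4 and Itga2b, both called higher, with Gp9 at no more than 1 count and Ppbp at no more than 4. Their part in the value of Vwf was not tested.

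Of 4 protease-activated receptors, 3 were tested, 1 was called higher and 1 lower. F2r, the main thrombin receptor of fibroblasts, fell from 211, 159 and 186 CPM to 115, 99.5 and 107 CPM (log2 fold change -0.79, edgeR adjusted p = 0.000136). F2rl1, which is cut by trypsin-like proteases and by the complex of tissue factor and factor VII, was called higher from 6, 4 and 9 counts to 21, 24 and 23 (log2 fold change 1.62, edgeR adjusted p = 0.00331).

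The genes most like Plau and F3 were sought among 9790 genes at a mean of at least 10 CPM, by Pearson's r of log2 CPM over the 6 samples. For Plau these were Fcgr3 (r = 0.978), Gstt2 (r = 0.972) and Erlin1 (r = 0.97), and 33 genes were above 0.9. Fcgr3 is an immunoglobulin receptor of myeloid cells. For F3 they were Slc27a6, Atp6v1a and Pigk, each with r = 0.999, and 2300 genes were above 0.9. The points share libraries, and the values are descriptions.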

How the data were processed

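Poly(A) RNA of 6 PSC samples was sequenced on a NovaSeq-6000. After adapter trimming the authors aligned reads to GRCm38 with STAR 2.6.1b and obtained gene counts from RSEM 1.3.1, as the submitters' processing notes and the methods state. The annotation release is not given in the sources used here. The authors deposited these expected counts without normalization between samples, and 0 values had a fraction. Columns were matched to samples by the sample names in the labels. GENCODE M21 held 55240 of the 55426 identifiers. RSEM divides reads shared by similar genes, so such genes are uncertain, and the strand setting of the counting was not stated.

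From the expected counts, edgeR 4.0.16 (R 4.3.3) was run on all 6 samples with filterByExpr, TMM, its quasi-likelihood F test and Benjamini-Hochberg adjustment over 16207 genes. The fold threshold of 1.5 and the adjusted p of 0.05 follow the study's methods, which used DESeq2. The standard error is the log2 fold change divided by the square root of F. Ratios were tested by exact permutation over samples (scipy 1.17.1). The fits were run on simulated data with 200 genes changed, far fewer than were called in the real data. There edgeR without the block recovered 80 of 98 genes at a log2 change of 1. At a log2 change of 2 it recovered 97 of 99, and it made 6 false calls.

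Totals of 24749601 to 31925054 counts set the precision; floors of 3 counts cover counting error only, since reads carried no molecular identifiers. Replicates of one condition differed by 5.68 to 22.5 chi-square per degree of freedom, more than sampling noise. The set and the gene lists were chosen with earlier results of these data known. Named genes were the 9 of the set, the called genes of the short lists, the called coagulation factors at a mean of at least 1 CPM, and the 3 genes most like Plau and F3, with 0.5 CPM added before the log. Alternatives were the replicate block, DESeq2 1.42.0, limma-voom (limma 3.58.1), other normalizations, filters and thresholds, and each sample left out. Promoters came from RefSeq. A comparison of protein sequences was not made here, and 1 gene planned for the lists and ratios is not reported here. Figures were drawn with matplotlib 3.10.9.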

Additional observations from a re-analysis of the deposited data

How the results depend on the processing

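With each sample left out in turn, Serpinb2 was called higher and F3 and Serpine2 lower in every fit, and the set held 1 call higher and 2 lower each time. In log2 terms the change lay from 4.22 to 4.56 for Serpinb2, from -1.14 to -0.96 for F3, from -0.84 to -0.66 for Serpine2, from -0.15 to 0.053 for Plau, from 0.21 to 0.41 for Plat, from 0.46 to 0.53 for Plaur, from 0.39 to 0.44 for Tfpi, from -0.18 to -0.11 for Tfpi2 and from 0.16 to 0.33 for Thbd. Plau changed sign without normoxic replicate 2 (0.053), hypoxic replicate 1 (0.042) or hypoxic replicate 3 (0.013). Without a fold threshold 5 genes of the set were higher, and with a fold threshold of 2 there was 1 lower, F3, and 3 of the other coagulation genes were called in place of 6, while calls over all 16207 genes went from 3068 to 1929 higher and from 2479 to 1227 lower. Leaving out a sample gave 6 to 9 calls among the other coagulation genes and 2 to 3 among the other plasminogen genes. Serpinf2 missed the threshold in DESeq2 with the replicate block (log2 fold change 1.79, adjusted p = 0.0633 from DESeq2), and Vtn without hypoxic replicate 2 (0.80). The conditions share the replicate numbers 1 to 3. After subtracting each group mean, the pairs with equal numbers correlated over genes at 0.14, 0.14 and 0.04. Pairs with unlike numbers lay between -0.135 and 0.0025, below every pair with equal numbers. The labels and the methods state no pairing, so the main fit held no replicate block. With the replicate block in edgeR the set again held 1 call higher and 2 lower, Serpinb2 had a log2 fold change of 4.40, F3 of -1.04 and Serpine2 of -0.75, and 3072 genes were called higher and 2500 lower over all genes. Other normalizations shifted the genes by a median of -0.0233 to 0.00298 (log2). The low counts of Serpinf2, F2rl1 and Serpinb2 in normoxia limit the precision of their fold changes. With 3 samples a group, no exact permutation test can go below 0.1.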
